A study of Mus musculus with 9 samples.

Results

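The immediate early transcription factors examined here are Fos, Fosb, Jun, Junb, Egr1, Ier2, Klf2, Klf4, Klf6 and Nr4a1. They were taken from the deposited table by gene symbol, which gave 10 of 54532 genes, each found once. Of these, 9 reached at least 1 FPKM in at least 3 libraries, the minimum for testing, as did 12642 genes in all, and Fosb did not. Kidney RNA had been sequenced in 9 samples from male C57BL/6J mice aged 4 months, 3 samples per group. Ground controls were untreated and kept on the ground. Hindlimb-unloaded mice, in which lifting the hind limbs off the floor models disuse and microgravity, received either vehicle or 4-phenylbutyric acid (4-PBA), a chemical chaperone, at 100 mg per kg per day by intraperitoneal injection. The libraries are called GC1 to GC3 (ground control), HU1 to HU3 (unloaded, vehicle) and PBA1 to PBA3 (unloaded, 4-PBA). Because only the unloaded mice were injected, unloaded against ground control does not separate unloading from vehicle injection. The labels do not tie samples to single animals, so p-values measure only the spread between these samples, which may be technical.

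Immediate early genes are transcribed within minutes of a stimulus without the need for new protein synthesis, from promoters that carry sites for serum response factor and CREB. Growth factors, mechanical load, hypoxia and the handling of a tissue after death all induce them, and their messenger RNAs are short-lived. Fos, Fosb, Jun and Junb encode basic leucine zipper subunits of the dimeric factor AP-1. Egr1 encodes a zinc finger factor, Ier2 a small nuclear protein and Nr4a1 an orphan nuclear receptor. Klf2, Klf4 and Klf6 encode Krüppel-like zinc finger factors. Klf2 and Klf4 are known for their induction by laminar flow in endothelium, and Klf6 for its induction in injured kidney epithelium.

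To show control regions of members, upstream sequence was read from RefSeq for build GRCm38.p6. Of the 10 members 8 had an entry, all but Egr1 and Ier2. The 3 stretches printed are those that hold a CREB or ATF type motif, each 150 bases long and written 5′ to 3′ on the gene's strand. Counted from the RefSeq start site, those of Fos and Jun end at -1 and that of Klf6 at -8. They are chr12:85473740-85473889 on the plus strand for Fos, chr4:95052223-95052372 on the minus strand for Jun and chr13:5861332-5861481 on the plus strand for Klf6. Capitals mark TGACGT (the core of a cyclic AMP response element, CRE), TGACATCA (a sequence of the Jun and ATF type) and TATAAA.
Fos: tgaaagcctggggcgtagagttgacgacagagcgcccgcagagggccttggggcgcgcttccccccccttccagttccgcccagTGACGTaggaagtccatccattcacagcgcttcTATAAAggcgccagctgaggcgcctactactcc
Jun: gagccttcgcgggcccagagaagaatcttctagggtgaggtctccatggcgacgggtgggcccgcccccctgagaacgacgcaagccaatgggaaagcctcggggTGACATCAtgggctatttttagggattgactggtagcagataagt
Klf6: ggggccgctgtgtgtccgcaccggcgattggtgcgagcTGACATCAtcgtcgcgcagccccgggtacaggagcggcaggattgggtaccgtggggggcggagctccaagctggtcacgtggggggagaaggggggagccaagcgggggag

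In Fos the TGACGT ran from -66 to -61 and the TATAAA from -33 to -28, counted from the start site. TGACATCA ran from -45 to -38 in Jun and from -119 to -112 in Klf6. Over the 250 bases upstream of 32817 RefSeq start sites, with both strands searched, TGACATCA stood in 2.93% of windows, TGACGT in 6.46% and TATAAA in 12.4%. Windows with the full CRE TGACGTCA, which contains TGACGT, made up 1.55%, those with the AP-1 site TGACTCA 4.46% and those with a CArG box 1.47%. None of these last 3 had a match in the windows of the 8 members. The EGR site GCGGGGGCG, found in 2.58% of windows, had a match in those of Fosb, Klf2, Klf4 and Nr4a1. These are matches of letters in a window, not measured binding.

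Reads assigned to genes numbered 7595631 to 15141784 per library. The mitochondrial genome took 14.8% to 49.7% of them in ground controls, 63.7% to 79.3% in unloaded libraries, 13.7% and 15.2% in PBA2 and PBA1, and 67.1% in PBA3. Reads outside it therefore numbered 1568888 to 3037972 in the unloaded libraries against 5780141 to 12893802 in ground controls. Olfactory and vomeronasal receptor genes, of which 1464 were measured, averaged 0.0410 to 0.157 FPKM in HU1 to HU3. They averaged 0.0437 FPKM in PBA3 and at most 0.00562 FPKM in the other 5 libraries. Of markers of the other cell types a kidney sample holds, the proximal tubule sum (8 genes, none at 0 in any library) was 2197 to 2493 FPKM in ground controls, 281 to 470 FPKM in the unloaded group and 629 to 2287 FPKM with 4-PBA. The 6 fibroblast markers, also without a gene at 0, summed to 11.3 to 37.0, 106 to 213 and 9.67 to 197 FPKM. Adipocyte markers summed to 364 FPKM in GC2 and 363 FPKM in PBA3, and to at most 16.8 FPKM elsewhere. What part these differences had in the values below was not tested. In a bulk sample, fewer cells of a type and less RNA per cell cannot be told apart.

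All values in the following are the deposited FPKM, reads per length of gene, unless called log2 differences. They were not scaled by total assigned reads. The FPKM of 1 read times gene length was 167 in HU1 with 8159090 reads, 321 in HU2 with 7595631 reads and 41.8 in GC2 with 15141784 reads. Unloaded libraries thus stand higher against ground controls here than with scaling by total reads, given below as an alternative. What set these factors was not tested. Among the 4 AP-1 subunits that are members, Junb had the highest mean over the 9 libraries and Fosb the lowest. Junb (ENSMUSG00000052837; mm10 chromosome 8, 84974484 to 84978718, 1 exon in its principal transcript) had, in the order of the sample numbers here and below, 3.22, 4.64 and 5.68 FPKM in ground controls, 15.0, 9.36 and 12.6 FPKM in the unloaded group and 6.53, 4.76 and 13.7 FPKM with 4-PBA. Every unloaded library lay above every ground control. Among treated libraries PBA3 lay within the unloaded range and PBA1 and PBA2 below it. The means were 4.51 ± 1.24, 12.3 ± 2.83 and 8.31 ± 4.71 FPKM (SD, n = 3 each). Unloaded exceeded ground control by a log2 difference of 1.27 (95% interval 0.45 to 2.10, limma adjusted p = 0.0563), which missed the threshold. Among the alternatives, limma passed it in 5 of 19, with an adjusted p of 0.0148 without PBA3, 0.0497 without PBA2 and 0.0342 by limma-voom on recovered reads. The log2 difference was 0.35 with scaling by total reads (limma adjusted p = 0.573) and 0.54 with the mitochondrial share as a covariate (0.469).

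Jun (ENSMUSG00000052684; mm10 chromosome 4, 95049034 to 95052222, 1 exon) had 2.09, 2.80 and 4.55 FPKM in ground controls, 4.67, 4.84 and 6.10 FPKM in the unloaded group and 5.73, 2.09 and 3.17 FPKM with 4-PBA. The unloaded libraries lay above the ground controls, though GC3 came close to HU1. The treated libraries spanned almost the whole range of both. The log2 difference of unloaded against ground control was 0.62 (limma adjusted p = 0.249), and it turned to -0.20 with scaling by total reads.

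Fos (ENSMUSG00000021250; mm10 chromosome 12, 85473890 to 85477273, 4 exons), the inducible partner of Jun, had 0.153, 0.586 and 1.24 FPKM in ground controls, 2.21, 0 and 1.57 FPKM in the unloaded group and 0.426, 0.222 and 0 FPKM with 4-PBA. These rest on 7, 33 and 32 reads, on 31, 0 and 25 reads, and on 25, 12 and 0 reads. Fos was therefore among the least expressed genes tested, with 1.35% of tested genes below its mean, and it passed the minimum level through GC3, HU1 and HU3. Its 0 reads allow up to 0.410 FPKM in HU2 and 0.205 FPKM in PBA3, taking 3 reads as the floor, which covers counting error only. HU1 and HU3 were above every other library and HU2 was at 0, so the groups overlapped (log2 difference 0.34, limma adjusted p = 0.662).

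Fosb (ENSMUSG00000003545; mm10 chromosome 7, 19302696 to 19310051, 4 exons) had 3, 11 and 7 reads in ground controls, 0, 0 and 2 reads in unloaded mice and 9, 0 and 16 reads with 4-PBA. Its highest level was 0.411 FPKM, in PBA3. It entered a test only without a filter on low values, where its log2 difference of unloaded against ground control was -0.0706 (95% interval -0.35 to 0.21, limma adjusted p = 0.741). At this depth no difference was detectable.

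Egr1 (ENSMUSG00000038418; mm10 chromosome 18, 34859823 to 34864984, 2 exons) had 0.733, 3.14 and 2.89 FPKM in ground controls, 18.3, 3.30 and 5.88 FPKM in the unloaded group and 2.88, 0.593 and 1.47 FPKM with 4-PBA. HU1 stood far above the other 8 libraries, while HU2 lay just above GC2. The ratio of the unloaded to the ground control mean was 4.07, with means of 9.17 ± 8.04 and 2.25 ± 1.32 FPKM (SD, n = 3 each). The log2 difference of 1.45 (95% interval 0.15 to 2.75) did not pass (limma adjusted p = 0.130). It was 0.84 without HU1, where that of Klf6 was 1.23, and 0.69 with scaling by total reads. Egr1 was also the most variable member within groups, with an SD of 0.84 on the log2(FPKM + 1) scale that exceeded that of 87.9% of genes tested.

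Ier2 (ENSMUSG00000053560; mm10 chromosome 8, 84661331 to 84662852, 1 exon) went the other way. It had 9.96, 8.01 and 9.84 FPKM in ground controls, 5.83, 1.27 and 5.71 FPKM in the unloaded group and 8.74, 9.02 and 9.17 FPKM with 4-PBA. All 3 unloaded libraries lay below all 6 others, which lay close together. HU2, the lowest, held 6 reads of Ier2, against 53 and 59 reads in HU1 and HU3. The means were 9.27 ± 1.09, 4.27 ± 2.60 and 8.98 ± 0.220 FPKM (SD, n = 3 each), and the log2 difference of unloaded against ground control, -1.12 (95% interval -2.01 to -0.23), did not pass (limma adjusted p = 0.0974). Without HU2 it was -0.59 (limma adjusted p = 0.129), and with scaling by total reads it was -1.88 and passed (0.0377). That scaling moved the median log2 difference of all genes to -0.78, and limma then called 2036 genes lower and 303 higher.

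Nr4a1 (ENSMUSG00000023034; mm10 chromosome 15, 101254269 to 101274795, 7 exons) had 0.659, 1.23 and 2.60 FPKM in ground controls, 2.15, 1.74 and 0.252 FPKM in the unloaded group and 1.02, 0.534 and 1.51 FPKM with 4-PBA. The highest value was in a ground control and the lowest in an unloaded library. The log2 difference of unloaded against ground control was -0.10 (95% interval -1.06 to 0.86, limma adjusted p = 0.901), and its sign changed with the libraries used.

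**Figure D1:**
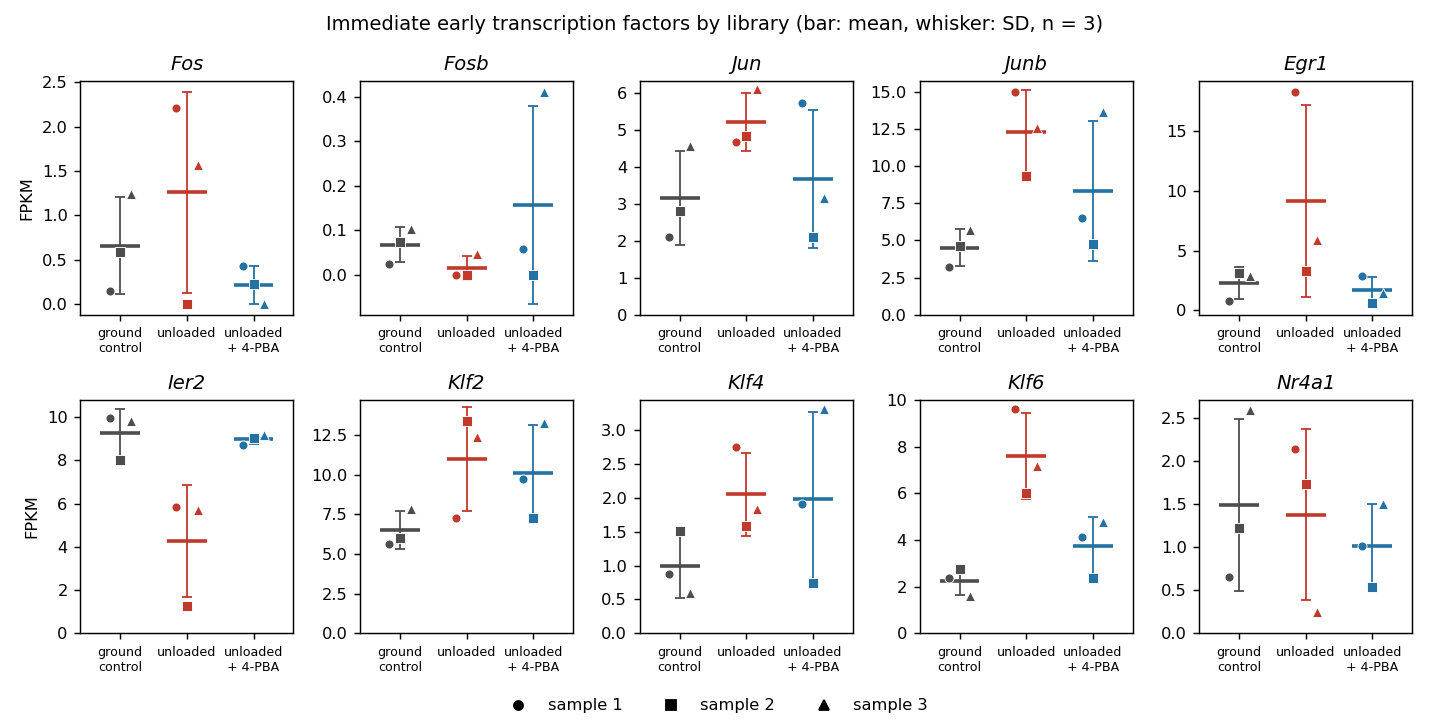
FPKM of each member by library, 1 panel per gene with its own vertical axis, with points for samples 1 to 3, a bar for the mean and a whisker for the SD (n = 3). Klf6 ran from 6.00 to 9.61 FPKM in unloaded libraries and from 1.60 to 2.76 FPKM in ground controls, while Ier2 was lowest in the unloaded libraries.

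Of the Krüppel-like factors, Klf6 was the member that rose. Klf6 (ENSMUSG00000000078; mm10 chromosome 13, 5861482 to 5870394, 4 exons) had 2.39, 2.76 and 1.60 FPKM in ground controls, 9.61, 6.00 and 7.15 FPKM in the unloaded group and 4.11, 2.38 and 4.75 FPKM with 4-PBA. The lowest unloaded library was above the highest of the other 6. The means were 2.25 ± 0.590, 7.59 ± 1.84 and 3.75 ± 1.22 FPKM (SD, n = 3 each), and the unloaded mean was 3.37 times the ground control mean. The log2 difference was 1.40 ± 0.29 (SE, 95% interval 0.74 to 2.05, limma adjusted p = 0.0230), on a log2(FPKM + 1) scale that compresses changes of weakly expressed genes. Limma kept the call in 12 of 19 alternatives, with an adjusted p between 0.0113 and 0.387 over all of them. It was lost without GC1 (0.0929), GC2 (0.0611), GC3 (0.0849) or HU3 (0.0514), with no filter on low values (0.0683), with the mitochondrial share as a covariate (0.123) and with scaling by total reads (0.387). The log2 difference was 0.54 with that scaling, and in the other 6 of these it stayed between 1.25 and 1.51.

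Klf2 (ENSMUSG00000055148; mm10 chromosome 8, 72319033 to 72321656, 3 exons) had 5.65, 6.04 and 7.86 FPKM in ground controls, 7.25, 13.4 and 12.4 FPKM in the unloaded group and 9.71, 7.25 and 13.3 FPKM with 4-PBA. HU2, HU3 and PBA3 were alike and highest, while HU1 lay below GC3. The log2 difference of unloaded against ground control was 0.65 (limma adjusted p = 0.193), and -0.30 with scaling by total reads.

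Klf4 (ENSMUSG00000003032; mm10 chromosome 4, 55527143 to 55532466, 5 exons) had 0.876, 1.51 and 0.599 FPKM in ground controls, 2.75, 1.58 and 1.84 FPKM in the unloaded group and 1.90, 0.744 and 3.31 FPKM with 4-PBA. Its highest library was PBA3, and HU2 exceeded GC2 only narrowly. The log2 difference of unloaded against ground control was 0.62 (limma adjusted p = 0.276), and 0.00320 with scaling by total reads (limma adjusted p = 0.995).

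The order of the levels differed between groups, though most neighbours in it overlapped. In ground controls it ran Ier2, Klf2, Junb, Jun, Egr1, Klf6, Nr4a1, Klf4, Fos and Fosb, by mean FPKM. Only Ier2 and Klf2, and Fos and Fosb, were neighbours whose libraries did not overlap. In unloaded mice it ran Junb, Klf2, Egr1, Klf6, Jun, Ier2, Klf4, Nr4a1, Fos and Fosb, and every pair of neighbours overlapped. With 4-PBA it ran Klf2, Ier2, Junb, Klf6, Jun, Klf4, Egr1, Nr4a1, Fos and Fosb, where only Junb and Klf6, and Nr4a1 and Fos, did not overlap. Over all 9 libraries the mean of Klf2 exceeded that of 76.5% of genes tested, that of Junb 74.6%, that of Klf6 57.9% and that of Klf4 23.6%.

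Unloaded against ground control asked how members differed after unloading with vehicle. In limma 1 of the 9 members tested passed, Klf6, against 10.2% of all genes tested (5.32% passed upwards), so the share of members was near that background. At an unadjusted p under 0.05 the count was 4 of 9, with Junb, Egr1 and Klf6 higher and Ier2 lower, against 29.8% of all genes. The libraries of the groups did not overlap in 6 of 9 members, against 37.7% of all genes: Jun, Junb, Egr1, Klf4 and Klf6 lay higher and Ier2 lower. Scaling by total reads turned the log2 difference of Jun to -0.20 and left that of Klf4 at 0.00320. The median log2 difference of the 9 members was 0.62 and that of all genes -0.03. Scaling by total reads moved the median of the members to 0.00320 and that of all genes to -0.78. Scaling by non-mitochondrial reads moved them to 0.89 and 0.13.

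The comparison of 4-PBA with vehicle in unloaded mice asked what the drug altered, and it shares the unloaded libraries with the first. Limma called 0 of 9 members, as did limma-voom, against 2.69% of all genes by limma. At an unadjusted p under 0.05 limma counted 3 of 9, against 20.1% of genes, and the same 3 members had groups that did not overlap, against 20.3%. Egr1 had 9.17 ± 8.04 FPKM with vehicle and 1.65 ± 1.16 FPKM with 4-PBA (SD, n = 3 each), a log2 difference of -1.74 (95% interval -3.04 to -0.44, limma adjusted p = 0.144). Klf6 had 7.59 ± 1.84 and 3.75 ± 1.22 FPKM (log2 difference -0.87, 95% interval -1.52 to -0.21, limma adjusted p = 0.147). Both were lower in all 3 treated libraries than in any unloaded one. Ier2, with 4.27 ± 2.60 and 8.98 ± 0.220 FPKM, was higher in all 3 (log2 difference 1.08, 95% interval 0.19 to 1.98, limma adjusted p = 0.174). None of these 3 differences passed, and none changed sign in the 19 alternatives. That of Klf6 was close to 0 with scaling by total reads (-0.0664, limma adjusted p = 0.925), which moved the median of all genes to 0.71. That of Egr1 was -1.13 without HU1 and -1.02 with that scaling, and that of Ier2 was 0.56 without HU2 and 1.77 with it.

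The remaining members overlapped between vehicle and 4-PBA. Their log2 differences were -0.75 for Fos, -0.61 for Junb, -0.48 for Jun, -0.16 for Nr4a1, -0.11 for Klf2 and -0.11 for Klf4. All but that of Fos turned positive with scaling by total reads, to 0.25 for Junb and 0.77 for Klf2 among others. The median over the members was -0.48 and over all genes 0.02, and scaling by total reads moved these to 0.31 and 0.71.

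**Figure D2:**
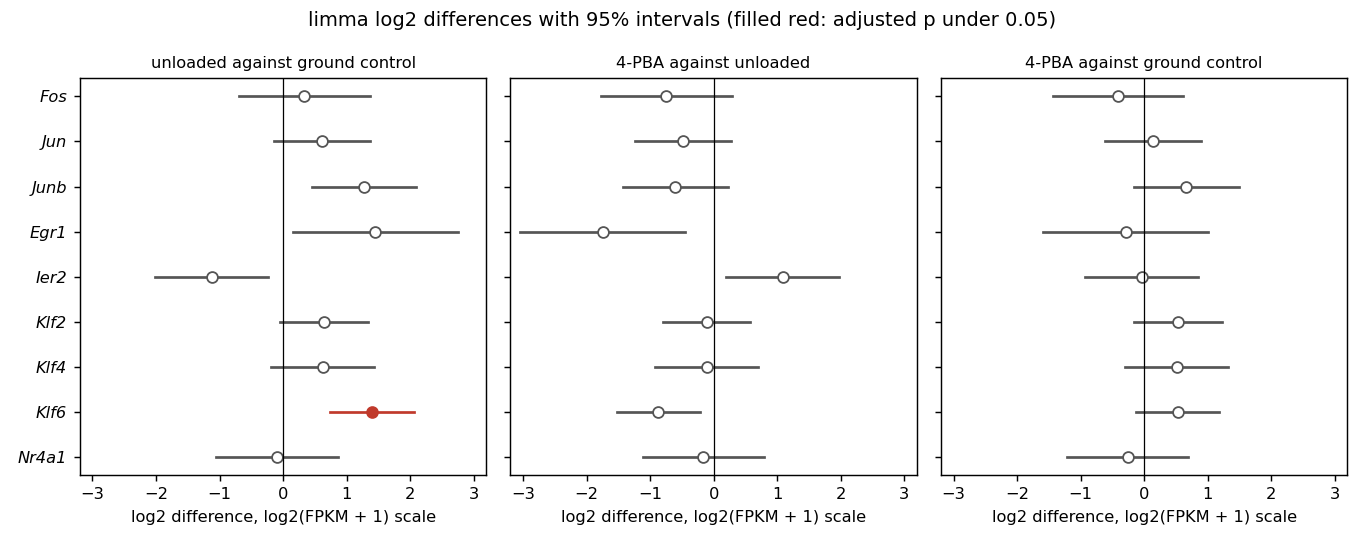
Log2 differences of the 9 members tested with their 95% intervals from limma, on the log2(FPKM + 1) scale, in the 3 comparisons. Klf6 in unloaded against ground control (1.40) is the filled point, past an adjusted p of 0.05, and every interval of 4-PBA against ground control spans 0.

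In 4-PBA against ground control, which asked how far treated unloaded mice differed from untreated mice, limma called 0 of 9 members and 0% of all genes, and limma-voom called 0 as well. At an unadjusted p under 0.05 it counted 0 of 9 members and 1.31% of genes. Groups overlapped in all 9 members and did not overlap in 8% of genes. The log2 differences ran from -0.41 (Fos, 95% interval -1.44 to 0.62) to 0.67 (Junb, -0.16 to 1.49), so differences of a size near 1 lie within several of the intervals. For Ier2 the difference was -0.04 (-0.93 to 0.86), and it turned to 0.05 with scaling by non-mitochondrial reads.

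PBA3 shared the high mitochondrial share of the unloaded libraries, and the members split in it. Junb at 13.7 FPKM lay within the unloaded range of 9.36 to 15.0 FPKM, and Klf2 at 13.3 FPKM within that of 7.25 to 13.4 FPKM. Klf4 at 3.31 FPKM was above all unloaded libraries. In contrast Ier2 at 9.17 FPKM was above the unloaded range of 1.27 to 5.83 FPKM, and Egr1 at 1.47 FPKM and Klf6 at 4.75 FPKM were below those of 3.30 to 18.3 FPKM and 6.00 to 9.61 FPKM. A single library gives no test of this split. Within groups, of all 10 members, Fosb included, 7 were highest in HU1 among unloaded libraries, 7 lowest in GC1 among ground controls and 8 lowest in PBA2 among treated ones. The same was not counted over all genes, so these counts cannot be called particular to the members.

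**Figure D3:**
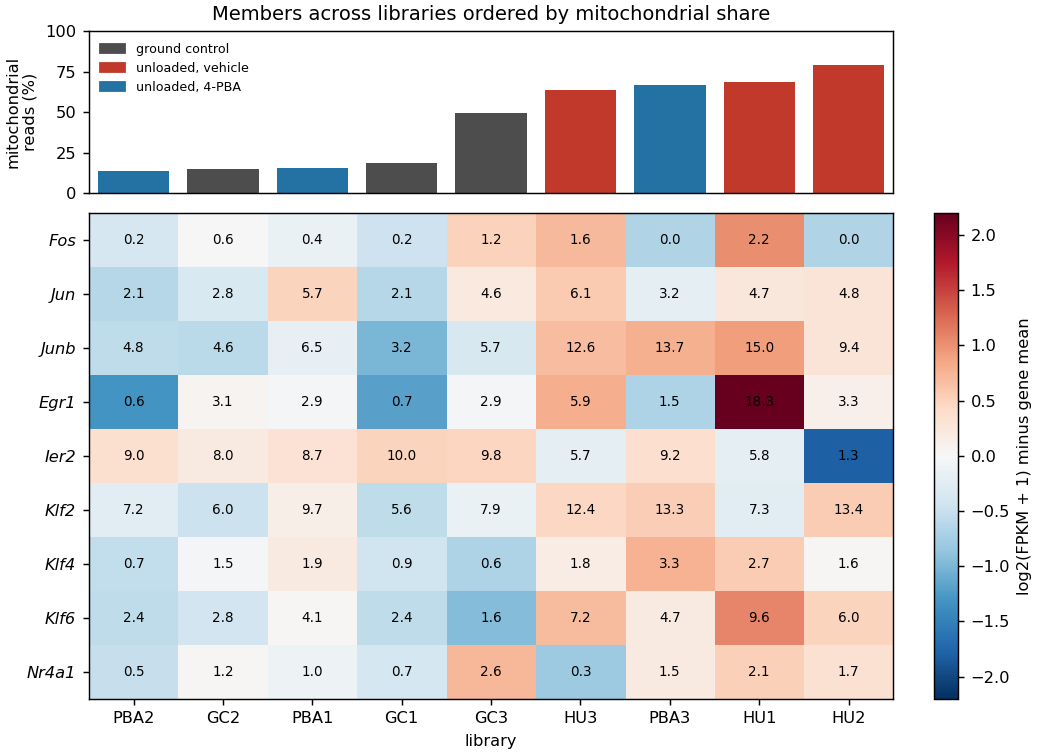
Libraries ordered by mitochondrial share of reads (top, percent) with the 9 members tested below, coloured by log2(FPKM + 1) minus the gene's mean over the 9 libraries and printed in FPKM. Klf6 and Egr1 in PBA3 (67.1% mitochondrial) are below their level in HU1 to HU3, and Ier2 is above it, while Junb and Klf2 lie within it.

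Klf2 and Klf4 mark flow-exposed endothelium, so their levels were set beside endothelial markers (Pecam1, Cdh5, Kdr, Emcn, Tie1, Tek, Eng, Ehd3 and Flt1, 9 genes, none at 0 in any library). The markers summed to 50.2, 74.3 and 81.6 FPKM in ground controls, 169, 196 and 155 FPKM in the unloaded group and 74.1, 54.6 and 141 FPKM with 4-PBA. Eng, which encodes the TGF-beta co-receptor endoglin, was the 1 marker that rose in unloaded against ground control (log2 difference 1.92, limma adjusted p = 0.0372), and the median of the 9 was 0.32. It alone had 23.0, 33.8 and 42.0 FPKM in ground controls, 101, 145 and 129 FPKM in the unloaded group and 31.1, 25.7 and 100.3 FPKM with 4-PBA, so it made up 60.0% to 82.8% of the sum in unloaded libraries and 45.5% to 51.5% in ground controls. The other 8 markers summed to 27.2, 40.5 and 39.6 FPKM, then 67.4, 51.1 and 26.8 FPKM and, with 4-PBA, 43.0, 28.9 and 40.9 FPKM, and the groups overlapped.

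As a share of all 9 markers, Klf2 was 8.13% to 11.3% in ground controls, 4.30% to 7.96% in unloaded libraries and 9.41% to 13.3% with 4-PBA. Without Eng it was 20.8%, 14.9% and 19.9%, then 10.8%, 26.2% and 46.2% and, with 4-PBA, 22.6%, 25.1% and 32.5%. The low share in unloaded libraries thus rested on Eng, and without it HU2 and HU3 lay above every ground control and HU1 below. For Klf4 the share of all 9 was 0.734% to 2.03%, 0.806% to 1.63% and 1.36% to 2.57%, and without Eng 1.51% to 3.72%, 3.09% to 6.87% and 2.58% to 8.09%, with groups that overlapped by both measures. The sum without Eng was added after the data were seen, and these shares were not tested.

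**Figure D4:**
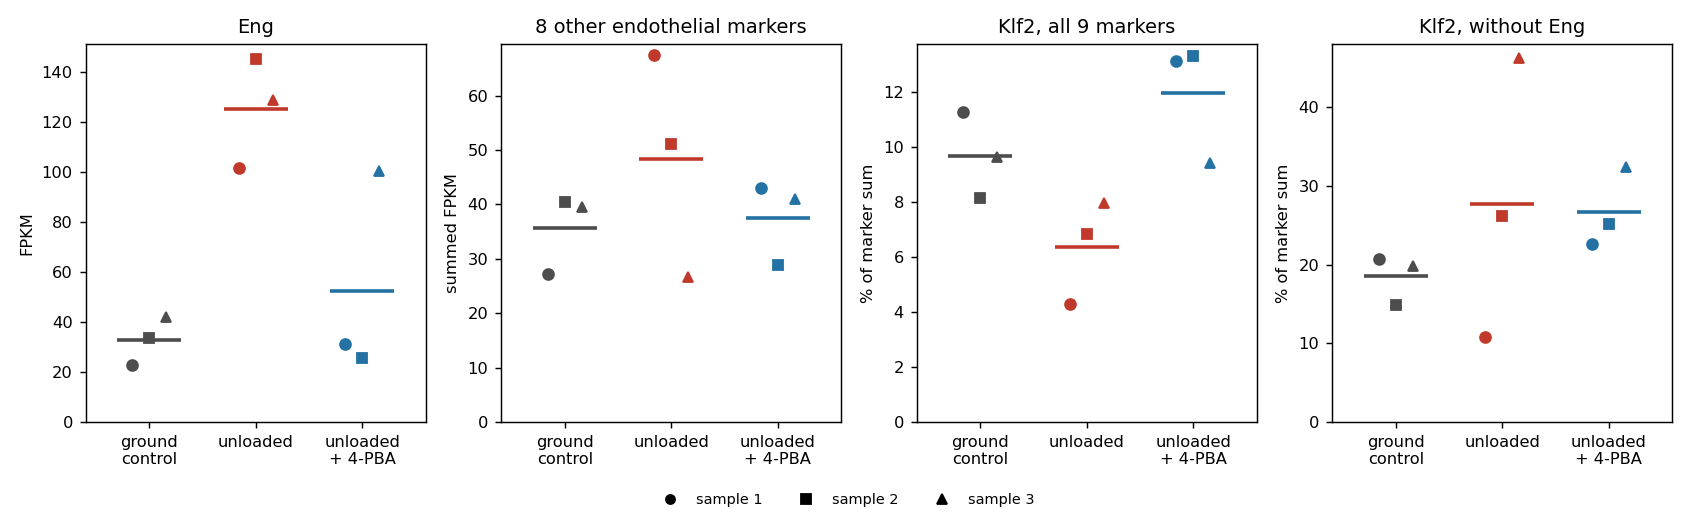
FPKM of Eng, summed FPKM of the 8 other endothelial markers, and Klf2 in percent of the sum of all 9 markers and of the 8 without Eng, by library, with a bar for the group mean. Eng was 101 to 145 FPKM in unloaded libraries, and the share of Klf2 there was 4.30% to 7.96% with Eng in the sum and 10.8% to 46.2% without it.

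Genes known as endothelial targets of Klf2 were 4, of which 3 were tested. Thbd, which encodes the anticoagulant receptor thrombomodulin, had 1.75, 4.04 and 3.73 FPKM in ground controls, 13.7, 16.8 and 12.2 FPKM in the unloaded group and 3.47, 1.53 and 9.95 FPKM with 4-PBA. It rose in unloaded against ground control (log2 difference 1.91, limma adjusted p = 0.0381). Nos3, the endothelial nitric oxide synthase, had a log2 difference of -0.78 and S1pr1, a receptor for sphingosine-1-phosphate, of -0.96, neither past the threshold. Both were at 0 FPKM in HU1. Of the 3 tested, 1 passed and 3 had an unadjusted p under 0.05 in limma, against 10.2% and 29.8% of all genes. The targets thus did not share a direction, and with 4-PBA against vehicle 0 passed in limma, while 1 (Thbd) had an unadjusted p under 0.05 and was called by limma-voom.

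Among other Krüppel-like factors 3 of 9 tested rose in unloaded against ground control, of 10 listed, and none fell, where 10.2% of all genes passed and 5.32% passed upwards. Klf9, a factor induced by glucocorticoids, had 2.19, 4.34 and 3.72 FPKM in ground controls, 19.9, 18.8 and 19.8 FPKM in the unloaded group and 7.95, 2.10 and 12.3 FPKM with 4-PBA (log2 difference of unloaded against ground control 2.25, limma adjusted p = 0.0232). The 3 unloaded libraries lay close together and above all others. Klf5, an epithelial factor, had 4.72 ± 3.45 FPKM in the unloaded group against 0.323 ± 0.0915 FPKM in ground controls (SD, n = 3 each). Its log2 difference was 1.94 (limma adjusted p = 0.0328). Klf5 reached 1 FPKM only in HU1 to HU3 and PBA3, so it entered the test through the libraries where it was high. Klf3 had 3.79 ± 0.543 FPKM in the unloaded group against 1.42 ± 0.497 FPKM in ground controls (SD, n = 3 each). Its log2 difference was 1.00 (limma adjusted p = 0.0397), a call that held in 4 of 19 alternatives. All 9 had log2 differences above 0, with a median of 0.64.

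Feedback genes, which end the signal or destroy the transcripts of immediate early genes, numbered 12, with 10 tested, of which 3 rose and none fell in unloaded against ground control (median log2 difference 0.96), beside the same 5.32% upwards over all genes. Zfp36l2, which encodes a protein that binds AU-rich elements and promotes decay of messenger RNA, had 5.18, 5.63 and 3.26 FPKM in ground controls, 14.4, 12.2 and 16.4 FPKM in the unloaded group and 6.60, 6.13 and 3.50 FPKM with 4-PBA (log2 difference 1.45, limma adjusted p = 0.0208). PBA3 was as low as the ground controls here. Spry2 and Spry4 encode Sprouty inhibitors of receptor tyrosine kinase signalling. Spry2 had 3.69, 4.88 and 4.33 FPKM, then 8.51, 9.24 and 11.3 FPKM and, with 4-PBA, 4.51, 4.45 and 3.07 FPKM. It rose in unloaded against ground control (log2 difference 1.01, limma adjusted p = 0.0311). In the main limma fit it was also the 1 gene of all these lists that fell with 4-PBA against vehicle (-1.10, limma adjusted p = 0.0458). That second call held in 3 of 19 alternatives. Limma-voom did not make it (limma-voom adjusted p = 0.0779), and called Zfp36l2, Klf5 and Thbd instead. Spry4 rose from 0.828 ± 0.232 to 2.72 ± 0.387 FPKM (SD, n = 3 each), and the log2 difference was 1.03 (limma adjusted p = 0.0297). Spry4 reached 1 FPKM only in HU1 to HU3 and GC3, so it entered the test mainly through the unloaded libraries, where it was high.

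Of 12 leucine zipper partners of AP-1, 9 were tested and 1 rose, Atf2, which dimerises with Jun on CRE-like sites. Over all genes 10.2% passed and 5.32% passed upwards, so the share in this list was near that background. Atf2 had 2.96, 2.79 and 2.49 FPKM in ground controls, 6.85, 5.18 and 8.26 FPKM in the unloaded group and 3.85, 2.94 and 4.07 FPKM with 4-PBA (log2 difference 1.03, limma adjusted p = 0.0300). The call of Atf2 held in 8 of 19 alternatives, and the list median was 0.35.

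Of 19 other immediate early genes 15 were tested and 0 passed in limma, with 3 at an unadjusted p under 0.05 and 1 (Ctgf) called by limma-voom. Over all genes 10.2% passed and 29.8% had an unadjusted p under 0.05, both above the shares in this list. The most abundant was Ctgf, a matricellular growth factor gene, with 12.0, 12.8 and 14.6 FPKM in ground controls, 97.3, 199 and 105 FPKM in the unloaded group and 9.55, 7.18 and 137 FPKM with 4-PBA (log2 difference 3.18, limma adjusted p = 0.0516). PBA3 lay with the unloaded libraries and apart from PBA1 and PBA2. Rhob, a small GTPase gene, had 18.6 ± 3.39 FPKM in ground controls against 38.0 ± 18.5 FPKM after unloading (SD, n = 3 each), which missed the threshold (limma adjusted p = 0.119).

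Upstream kinases and factors numbered 21, with 19 tested and 0 past the threshold in limma, 1 at an unadjusted p under 0.05 and 0 called by limma-voom. Both limma shares lay below those over all genes, 10.2% past the threshold and 29.8% at an unadjusted p under 0.05. The most abundant were Map2k2, encoding the kinase MEK2, with a log2 difference of -0.55, and Mapk3, encoding ERK1, with 0.49. Of 6 heat shock genes, examined since they too respond to handling stress, Hspa8 fell. This constitutive chaperone gene had 350, 312 and 287 FPKM in ground controls, 139, 165 and 124 FPKM in the unloaded group and 221, 360 and 217 FPKM with 4-PBA (log2 difference -1.15, limma adjusted p = 0.0451). Hspa8 was the 1 of the 6 heat shock genes that passed, against 10.2% of all genes. The other 5 had log2 differences above 0, and the list median was 0.28.

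**Figure D5:**
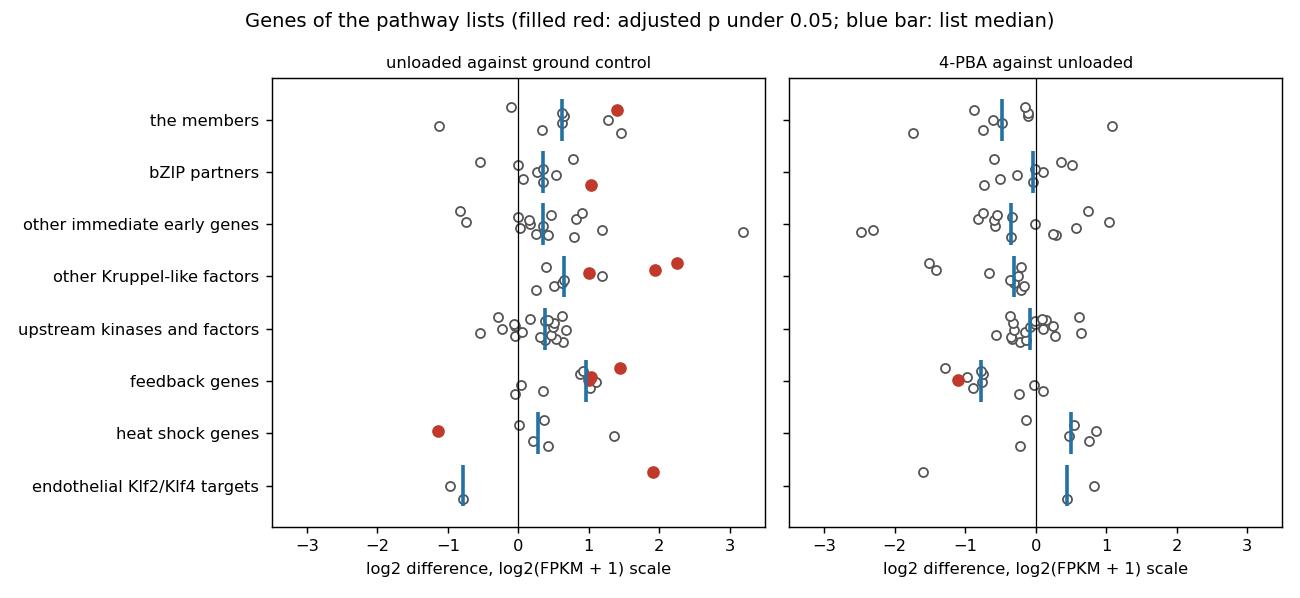
Log2 differences (log2(FPKM + 1) scale) of the tested genes of each list in unloaded against ground control (left) and 4-PBA against unloaded (right), with filled points past an adjusted p of 0.05 and a bar at the list median. The feedback genes had medians of 0.96 and -0.77, and Spry2 is the filled point on the right.

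Without any single ground control, none of the 10 genes named above as past the threshold in unloaded against ground control (Klf6 and 9 list genes) passed in limma, with adjusted p between 0.0554 and 0.171. Without PBA3 all 10 passed, with the mitochondrial share as a covariate 1 did (Zfp36l2), and with scaling by total reads 2 did. The calls held in as few as 4 (Klf3) and at most 13 (Zfp36l2) of 19 alternatives, with 7 each for Thbd and Hspa8. None of the 10 genes changed direction in any alternative.

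The genes whose profile over the 9 libraries was most like that of a member were found by the root mean square difference between profiles, each centred and divided by its SD, over 10927 protein-coding genes. For Klf6 these were Qk (0.142), Tnpo3, Aktip and Gnai3 (0.172). For Egr1 they were Dtx4 (0.251), Gtpbp10, Ifi44, Fndc3b and Rhob (0.282). For Fos they were Arhgap29 (0.277), Slamf9, Hoxd10, Smim3 and Clock (0.353), and for Klf2 they were Lrrc32 (0.227), Adora2a, Extl3, Myo1c and Rcn1 (0.311). No member was among another's 5 nearest. The closest pair of members was Junb and Klf6 (0.498), followed by Junb and Klf4 (0.579) and by Fos and Egr1 (0.596), for which Egr1 ranked 99 from Fos. All genes were measured in the same 9 libraries, which differ in depth and mitochondrial share, so likeness between profiles is a description only.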

How the data were processed

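Per the labels' protocols, poly(A) RNA from kidney was made into libraries that keep strand. Per the submitters' processing notes CASAVA, cutadapt, HISAT2 and mm10 were used, with no versions; how reads were counted is not given in the sources used here. In 1 table the authors deposited a value per gene and library that behaves as FPKM, though not scaled by total assigned reads, and a gene length in bases. Multiplying each FPKM value by length and a library constant gave whole reads for 100% of values (tolerance 0.01), and these gave the depths. No 2 libraries agreed within sampling noise.

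As the values were FPKM, limma 3.58.1 (R 4.3.3) was run on log2(FPKM + 1), with a trend, all 9 libraries in 1 fit without a block, over the 12642 genes at 1 FPKM or more in 3 libraries, with Benjamini-Hochberg adjustment and a threshold of 0.05. The code was tested on simulated data. Figures used Python 3.11.15 and matplotlib 3.10.9. All members were named, and from each list every gene past the threshold or, where none was, the 2 of highest mean, and the 5 nearest profiles for 4 members, of which 1 gene is not reported here. Members and lists were chosen with earlier results of these data known. Alternatives covered pseudocounts of 0.1 and 4, no filter, 2 scalings, limma-voom, the 6 libraries compared alone, a replicate block, the mitochondrial share as a covariate, each library left out, and GC3 and PBA3 left out together. For list genes they were added after the data were seen.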

Additional observations from a re-analysis of the deposited data

How the results depend on the processing

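The number of members called in unloaded against ground control (1) was 0 without a filter on low values, 2 by limma-voom, 2 with only the 6 libraries compared, 0 with the mitochondrial share as a covariate and 2 without both GC3 and PBA3. With each library left out in turn it was 0 to 2. In both other comparisons it was 0 in every alternative run. The 1292 genes called in unloaded against ground control became 238 without a filter, 2339 with scaling by total reads (303 higher and 2036 lower), 99 with the covariate and 69 to 2360 with a library left out. Scaling by non-mitochondrial reads gave 848 higher and 468 lower, limma-voom 845 and 479. The 340 genes of 4-PBA against vehicle became 145 with a pseudocount of 0.1, 17 without a filter, 722 with scaling by total reads (596 higher and 126 lower), 17 with only the 6 libraries, 121 with the covariate, 1118 without both GC3 and PBA3, and 36 to 1320 with a library left out. The signs that turned were these. Scaling by total reads gave Jun -0.20 and Klf2 -0.30 against ground control, and with 4-PBA against vehicle Jun 0.31, Junb 0.25, Klf2 0.77, Klf4 0.44 and Nr4a1 0.32. The covariate gave, with 4-PBA against vehicle, Junb 0.0513, Klf2 0.34, Klf4 0.19 and Nr4a1 0.48. Nr4a1 against ground control was 0.20 without both GC3 and PBA3 and -0.36 to 0.31 with a library left out. With a library left out, 4-PBA against vehicle ran from -0.36 to 0.0844 for Klf2, -0.42 to 0.23 for Klf4 and -0.57 to 0.10 for Nr4a1. The 4-PBA against ground control values then ran from -0.17 to 0.39 for Jun, -0.69 to 0.0291 for Egr1, -0.13 to 0.0132 for Ier2 and -0.52 to 0.0429 for Nr4a1, and Ier2 was 0.0465 with scaling by non-mitochondrial reads. The cause of these changes was not tested. Fits without a library take their spread from all groups.

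The labels do not say that sample numbers pair animals, and same-numbered libraries correlated between -0.196 and 0.288 in their deviations from group means. With the replicate number as a block, 904 genes were called for unloading and 137 for the drug, and Klf6 had a limma adjusted p of 0.0383. Depth limits Fos, Fosb, Nr4a1 and Ier2 most, with as few as 0 (Fos and Fosb) or 6 reads in a library.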
